A study of Mus musculus with 9 samples.

Results

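Hgf, the gene of hepatocyte growth factor, and Met, the gene of its receptor, were followed through RNA sequencing libraries of mouse epicardium-derived cardiosphere-derived cells (ECDCs). They were taken by symbol and make up 2 of the 54532 genes in the deposited table. The pair was selected on its measured levels in these same libraries, so the levels of Hgf and Met are given here as a description, without a test. Hgf was highest in primary cells, lowest in the immortalized line and intermediate in SB431542-treated cells. Met was present at a similar level in all groups and was somewhat lower in primary cells.

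HGF is secreted, mostly by mesenchymal cells, as an inactive single chain that serine proteases cut into the active form. It binds MET, a receptor tyrosine kinase, which then recruits the docking protein GAB1 and activates the ERK, PI3K and STAT3 branches that drive cell motility, survival and tube formation. In the heart HGF is known as a protective and angiogenic factor released by stromal and progenitor cells.

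The 9 libraries formed 3 groups of 3, all from C57BL/6 mice, aged 6 weeks for the primary cells. pECDCs were primary cells grown out of heart explants, untreated. iECDCs were such cells immortalized with a lentivirus that carries hTERT, the catalytic subunit of human telomerase, under a viral promoter and then selected with puromycin, and were untreated at passage 30. The SB431542-treated libraries were labelled as the same immortalized cells at passage 30 after 3 days with SB431542, which blocks the kinase of the type I receptor of TGF-β, whereas the study's methods describe an epithelial clone derived from treated primary cells. The groups follow the labels here. With either description the cells and the treatment of that group cannot be told apart in the comparison with pECDCs. With the description in the methods, they cannot be told apart in the comparison with iECDCs either, since the cells would also differ in immortalization. The passage of the pECDCs is given differently in the labels and in the methods. The methods call the replicates biological, with a number per condition that differs from the 3 libraries here, and do not say whether they were separate cultures or animals, so the p-values measure the spread between these libraries, which may be technical.

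Total counts ranged from 19462912 to 23951392 in pECDC, from 16568306 to 20204216 in iECDC and, with SB431542, from 17063137 to 20849975. A pair of libraries stood apart from their groups. In a chi-square of the counts over genes, divided by its degrees of freedom, iECDC replicate 3 differed from the other iECDC libraries by 24.9 and 30.8, against 4.61 between those other libraries. SB431542-treated replicate 2 differed from the other treated libraries by 70.3 and 71.5, against 3.79 between the other treated libraries, and pECDC libraries differed from each other by 2.70 to 4.23. All 7 mesenchymal markers of the cells (Thy1, Eng, Pdgfra, Pdgfrb, Col1a1, Col1a2 and Vim) were expressed in every group, with a summed level of 1570 to 2390 FPKM (fragments per kilobase of gene length, scaled to library depth). Of these 7, 2 were higher in iECDCs than in pECDCs. They were Eng and Vim, with log2 fold changes of 0.35 and 0.36 (edgeR adjusted p = 0.00843 and 0.0265). Another 3 were lower, Pdgfra, Pdgfrb and Col1a1, while Thy1 and Col1a2 did not pass the test. Of all tested genes 7.21% were higher and 9.21% lower. The calls of Eng, Vim and Col1a1 did not hold with all 9 libraries in 1 fit. That of Eng was also lost without pECDC replicate 1 or 2, and those of Vim and Col1a1 without any 1 pECDC replicate. The call of Col1a1 was also lost without iECDC replicate 1 or 2. By group mean, Thy1, Eng and Vim were highest in iECDCs. Pdgfra was at 15.3 to 16.2 FPKM in pECDC, 10.3 to 10.8 in iECDC and 17.5 to 22.2 in treated libraries, and Pdgfrb at 30.2 to 31.5, 21.2 to 23.4 and 31.9 to 65.8, so that both were lowest in iECDCs, as Hgf was. Their log2 fold changes were -0.57 and -0.49 in iECDCs relative to pECDCs (edgeR adjusted p = 0.000332 and 0.00102, and for Pdgfrb 0.225 with all 9 libraries in 1 fit) and 0.96 and 1.23 in treated cells relative to iECDCs (0.0018 and 0.00902). Of the 7 markers, Pdgfra and Pdgfrb were higher in treated cells than in iECDCs, Vim was lower and 4 were not called. Of all tested genes 16.0% were higher and 14.0% lower in that comparison. Vim was at -0.64 (edgeR adjusted p = 0.0169), a call that did not hold without iECDC replicate 2 or without treated replicate 1 or 3. The 5 endothelial markers summed to at most 0.165 FPKM. The 9 epithelial and mesothelial markers summed to 18.7 to 19.9 FPKM in pECDC, 29.0 to 31.5 in iECDC and 24.9 to 39.8 in SB431542-treated libraries, nearly all of it from Krt19, while Cdh1, Epcam and Krt8 were at or near 0. The 5 leukocyte markers summed to 4.14 to 8.27 FPKM over the 9 libraries, from Csf1r and Cd68, with Ptprc at 0 to 4 counts. The part of these markers in the results was not tested.

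Hgf (ENSMUSG00000028864) lies on the plus strand at chr5:16553495-16620152 of GRCm38, with 6 annotated transcripts and a length of 7186 bases in the table. Predicted short genes lie inside it on the same strand, Gm43489, with 1 to 43 counts per library, and Gm42975, with 0 to 5 counts. Met (ENSMUSG00000009376) lies on the plus strand at chr6:17463800-17573980, with 7 annotated transcripts, a length of 7679 bases and no gene overlapping it. The sequences upstream of both genes are shown because the libraries differ in exposure to a TGF-β receptor inhibitor and because the ligand and its receptor did not move together. They are taken from RefSeq on GRCm38.p6, each printed 5′ to 3′ on the plus strand. The run of Hgf holds the 250 bases before its start, chr5:16553245-16553494, with a GC content of 50.8%, and the run of Met holds the 93 bases of its promoter window that precede the first annotated exon, chr6:17463707-17463799, with a GC content of 75.3%. Capitals mark CAGAC, letters bound by SMAD proteins, 112 bases before the first exon of Hgf, and GGGCGG, the GC box bound by SP1, 82 bases before that of Met.
Hgf promoter: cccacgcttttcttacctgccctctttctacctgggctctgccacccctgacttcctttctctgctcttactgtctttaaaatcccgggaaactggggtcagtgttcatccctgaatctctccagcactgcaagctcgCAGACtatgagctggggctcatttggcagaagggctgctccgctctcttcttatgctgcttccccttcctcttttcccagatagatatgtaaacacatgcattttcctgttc
Met promoter: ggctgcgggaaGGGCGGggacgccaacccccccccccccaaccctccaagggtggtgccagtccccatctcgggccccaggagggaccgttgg
Both strands of the full windows of 300 bases (250 before and 50 after the RefSeq start) were searched. CAGAC was found 1 time in the window of Hgf, 2 times in that of a second RefSeq start of Hgf and 1 time in that of Met, and 49.6% of the 32851 mouse promoters of this length hold it. GGGCGG was found 3 times in the window of Met and in neither window of Hgf (35.7% of promoters hold it), and the AP-1 letters TGANTCA 1 time in that of Met and in neither of Hgf (7.81%). The TGF-β inhibitory element, a motif through which TGF-β is known to lower other genes, was in none of the 3 windows (1.0% of promoters hold it). A match describes the letters and not the binding of a factor.

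Hgf was counted 1890, 1392 and 1571 times in pECDC replicates 1, 2 and 3, which is 10.7, 9.73 and 9.36 FPKM. In iECDC replicates 1, 2 and 3 it was counted 246, 159 and 61 times, or 1.7, 1.35 and 0.552 FPKM. In SB431542-treated replicates 1, 2 and 3 it was counted 783, 843 and 981 times, or 6.21, 5.58 and 7.56 FPKM. The pECDC libraries were the highest, the iECDC libraries the lowest and the treated libraries between them, and no library of a group overlapped another group. The mean level was 9.94 ± 0.704 FPKM in pECDCs, 1.20 ± 0.586 in iECDCs and 6.45 ± 1.01 in SB431542-treated cells (SD, n = 3 each). From bulk RNA, fewer Hgf-expressing cells and less Hgf RNA per cell cannot be told apart.

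The edgeR log2 fold change of Hgf was -3.04 (SE 0.271) in iECDCs relative to pECDCs, which is 8.2-fold lower. On the log2(FPKM + 1) scale, which understates folds of low genes, limma gave -2.35 for this comparison and 1.79 for treated cells relative to iECDCs. Even the lowest pECDC library was 5.52 times the highest iECDC library in FPKM. Of 13752 genes tested in this comparison, 88 had a more negative log2 fold change. Relative to iECDCs, SB431542-treated cells had a log2 fold change of Hgf of 2.42 (SE 0.342), 5.37-fold higher, with 223 of 13559 tested genes showing a larger increase. Relative to pECDCs, the treated cells had a log2 fold change of -0.62 (SE 0.123), 1.53-fold lower, so that the treated level lay nearer to the primary than to the immortalized cells. The spread among iECDC libraries was the widest, with a coefficient of variation of 48.9% and a highest library 3.07 times the lowest, against 7.09% in pECDCs and 15.7% in treated cells. The lowest iECDC library for Hgf was replicate 3, which stood apart in its whole profile, and without it the log2 fold change was -2.71 against pECDCs and 2.08 for treated cells against iECDCs. Without SB431542-treated replicate 2, the lowest treated library for Hgf, these values were 2.51 against iECDCs and -0.52 against pECDCs. Among protein-coding genes with a mean of at least 1 FPKM, 44.5% were above Hgf in pECDCs, 97.2% in iECDCs and 57.9% in treated cells.

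Met was counted 1329, 1059 and 1174 times in pECDC replicates 1, 2 and 3, or 7.06, 6.93 and 6.55 FPKM. In iECDC replicates 1, 2 and 3 it was counted 1323, 1213 and 1158 times, or 8.53, 9.61 and 9.81 FPKM. In SB431542-treated replicates 1, 2 and 3 it was counted 1310, 1756 and 1292 times, or 9.73, 10.9 and 9.31 FPKM. The pECDC libraries lay below all others, while iECDC and treated libraries overlapped. The means were 6.84 ± 0.265 FPKM in pECDCs, 9.32 ± 0.687 in iECDCs and 9.97 ± 0.808 in SB431542-treated cells (SD, n = 3 each). The log2 fold change of Met was 0.43 (SE 0.0728) in iECDCs relative to pECDCs, 1.35-fold higher, and 0.55 (SE 0.0780) in treated cells relative to pECDCs, 1.47-fold higher. Between treated cells and iECDCs it was 0.11 (SE 0.106), 1.08-fold, a value about the size of its error. Met ranked in the middle of expressed protein-coding genes in every group, with 56.2% above it in pECDCs, 46.9% in iECDCs and 43.7% in treated cells.

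**Figure D1:**
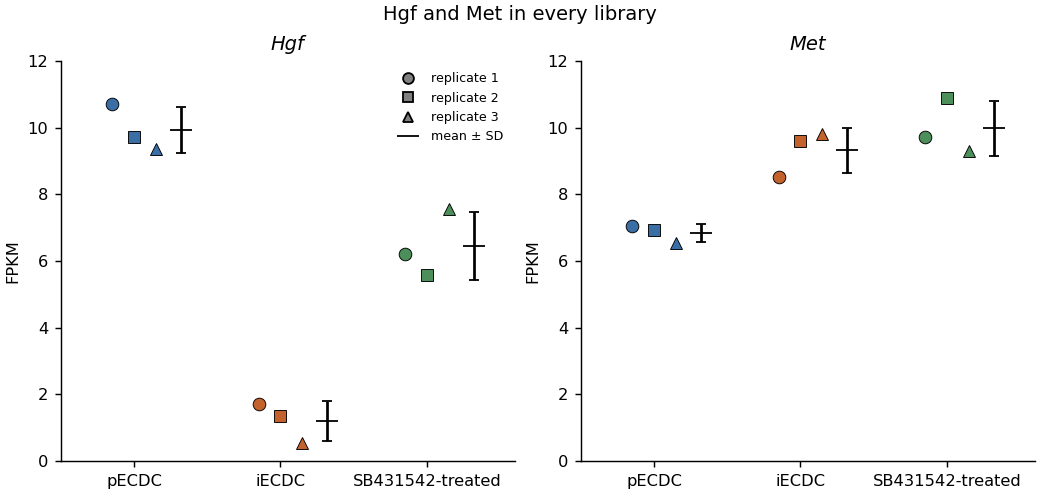
FPKM (linear axis from 0) of Hgf on the left and Met on the right in each of the 9 libraries, with a symbol for each replicate and the group mean ± SD as a black bar beside the points. Hgf falls into 3 separate levels, with iECDC libraries at 0.552 to 1.7 FPKM, while Met stays between 6.55 and 10.9 FPKM and its iECDC and treated libraries overlap.

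The ratio of ligand to receptor, FPKM of Hgf over FPKM of Met, sets the levels of both genes per length within a library. It was 1.52, 1.40 and 1.43 in pECDC replicates 1, 2 and 3, 0.199, 0.140 and 0.0563 in the iECDC replicates and 0.639, 0.513 and 0.811 in the SB431542-treated replicates. By FPKM with the deposited gene lengths, Hgf thus exceeded Met in each pECDC library and was below Met in each of the other 6 libraries. The groups did not overlap. The group means were 1.45 ± 0.0605, 0.132 ± 0.0716 and 0.654 ± 0.150 (SD, n = 3 each). The gene length in the table includes retained introns of both genes, which lowers FPKM values and can shift the ratio, but by the same factor in every library. It is 7186 bases for Hgf and 7679 for Met, where the longest coding transcripts have 3468 and 6809 bases. The order of the groups does not depend on the lengths, but whether a library lies above or below a ratio of 1 does.

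**Figure D2:**
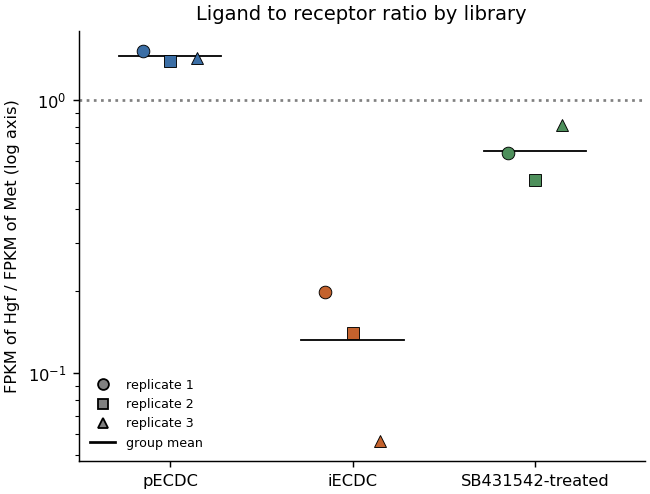
FPKM of Hgf divided by FPKM of Met on a log axis, 1 symbol per library, with the group mean as a line and equal FPKM as a dotted line. The position relative to the dotted line depends on the gene lengths used. The pECDC libraries lie above the dotted line at 1.40 to 1.52, the treated libraries below it at 0.513 to 0.811, and the iECDC libraries lowest at 0.0563 to 0.199.

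A set of 102 genes of the HGF and MET pathway, in 8 lists by role and without Hgf and Met, was then tested with edgeR over all genes (adjusted p under 0.05). In iECDCs relative to pECDCs, 85 of them could be tested, of which 10 were higher (11.8%) and 15 lower (17.6%), where 7.21% of all tested genes were higher and 9.21% lower, and the median log2 fold change was -0.06. In SB431542-treated cells relative to iECDCs, 21 of 86 were higher (24.4%) and 16 lower (18.6%), against 16.0% and 14.0% of all tested genes, with a median of 0.04. In treated cells relative to pECDCs, 24 of 86 were higher (27.9%) and 23 lower (26.7%), against 17.9% and 17.0%, with a median of 0.02. The 102 genes taken as 1 set therefore had no common direction in any comparison, and the median of all tested genes was within 0.01 of 0 in each. The set mixes genes that promote and genes that lower MET signalling, so this does not give a direction of the pathway. Single lists could differ from the set, as the ERK response genes below did. The counts moved when single libraries were left out. In the first comparison 25 genes were called, and leaving out pECDC replicate 1, 2 or 3 gave 16, 16 and 15, whereas leaving out iECDC replicate 3 gave 47. In the second, with 37 called, the count was 22 and 21 without iECDC replicate 1 or 2, 22 and 23 without treated replicate 1 or 3, and 61 without treated replicate 2. In the third, with 47 called, the count was 31 and 30 without pECDC replicate 1 or 2 and 76 without treated replicate 2. Of the 37 genes called between treated cells and iECDCs, treated replicate 2 was the treated library nearest to the iECDC mean for 29. The share of all tested genes moved with these counts. Without iECDC replicate 3, 15.5% of all tested genes were higher and 16.2% lower in the first comparison, and without treated replicate 2, 25.3% were higher and 24.8% lower in the second and 31.7% and 32.3% in the third. With all 9 libraries in 1 fit, which share 1 estimate of spread, 8 genes were called in the first comparison. The calls of Plat, Fosl1, Dusp5, Fgf2, Plaur and Tgfb3 did not hold (edgeR adjusted p = 0.0789, 0.284, 0.175, 0.1, 0.115 and 0.0654). Those of Plau, Nrp2, Sdc2, Itgb4, Dcn, Hras, Adam10, Adam17, Etv4, Tgfb1 and Tgfb2 did not hold in this fit either.

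**Figure D3:**
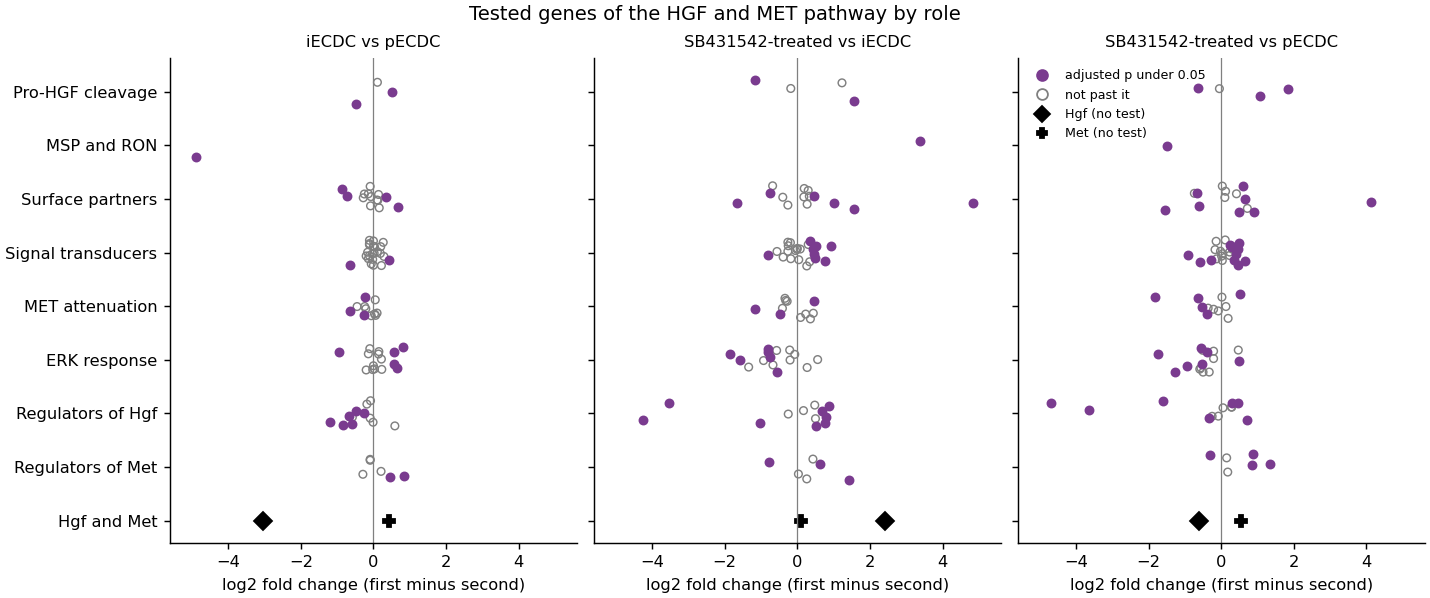
Log2 fold changes from edgeR for the tested genes of the 8 role lists (rows) in the 3 comparisons (panels), filled where the adjusted p was under 0.05, with Hgf as a diamond and Met as a cross in the bottom row, both without a test. Most genes lie within 1 of 0 and on both sides of it, and Hgf lies beyond most of them at -3.04 and 2.42 in the first 2 comparisons.

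Of 15 genes that act on the cleavage of pro-HGF or of pro-MET, 11 had too few counts to be tested in any comparison. They include Hgfac, the HGF activator of plasma, with 0 to 3 counts per library, St14 (matriptase) with 0 to 4 counts, and Spint2, an inhibitor of these proteases, with 3 to 18 counts. Of the proteases that cut pro-HGF, those with enough counts were the plasminogen activators, Plat and Plau. Plat, tissue plasminogen activator, was at 9.56, 9.16 and 9.38 FPKM in pECDC, 6.98, 6.48 and 6.70 in iECDC and 21.9, 14.7 and 22.1 in SB431542-treated libraries, with no overlap. The log2 fold change of Plat was -0.49 (edgeR adjusted p = 0.00122) in iECDCs relative to pECDCs, 1.55 (0.00109) in treated cells relative to iECDCs and 1.07 (0.00327) relative to pECDCs. Plau, urokinase, was at 18.7, 19.6 and 19.4 FPKM in pECDC, 32.4, 31.0 and 20.2 in iECDC and 10.8, 15.1 and 11.1 in treated libraries, the treated libraries being the lowest. Its log2 fold change in treated cells was -1.16 relative to iECDCs (edgeR adjusted p = 0.00626) and -0.63 relative to pECDCs (0.0111, but 0.0508 and 0.0505 without pECDC replicate 2 or 3). The higher value of Plau in iECDCs than in pECDCs (log2 fold change 0.52, edgeR adjusted p = 0.0483) was no longer past the threshold without any 1 of the pECDC replicates or without iECDC replicate 1 or 2, with an adjusted p of 0.118 to 0.16. Furin, which cleaves pro-MET, had values between -0.18 and 0.11 and was not called. Spint1, another inhibitor of HGF-activating proteases, had 6 to 36 counts, with a log2 fold change of 1.23 in treated cells relative to iECDCs (edgeR adjusted p = 0.05, not called) and 1.83 relative to pECDCs (0.0111, and 0.0571 without pECDC replicate 1).

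The other ligand and receptor of the family are MSP, encoded by Mst1, and RON, encoded by Mst1r. Mst1 had 0 to 2 counts in every library and was not tested. Mst1r had 121 to 169 counts in pECDC, 1 to 6 in iECDC and 23 to 52 in SB431542-treated libraries. In FPKM it was at 1.38, 1.40 and 1.03, then 0.0594, 0.0486 and 0.0130, then 0.592, 0.218 and 0.542, so that the order of the groups was that of Hgf, the ligand of the related receptor, and no libraries of different groups overlapped. It fell by 4.89 on the log2 scale (SE 0.324, edgeR adjusted p = 2.65e-05) in iECDCs relative to pECDCs and rose by 3.39 (SE 0.571, edgeR adjusted p = 0.00504) in treated cells relative to iECDCs. Relative to pECDCs the treated cells were at -1.50 (SE 0.348, edgeR adjusted p = 0.0160), with an adjusted p of 0.0639 and 0.0626 without pECDC replicate 1 or 2. The level of Mst1r was low in all groups, at or below 1.40 FPKM.

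Among 14 surface partners of HGF and MET, which carry or make heparan sulfate, act as co-receptors or antagonize MET, 2 were higher and 2 lower in iECDCs than in pECDCs, 4 higher and 2 lower in SB431542-treated cells than in iECDCs, and 5 higher and 3 lower in treated cells than in pECDCs. The shares of all tested genes that were higher were 7.21%, 16.0% and 17.9% in these comparisons, and 9.21%, 14.0% and 17.0% were lower. Without iECDC replicate 3 the first of these counts became 3 and 6, and without treated replicate 2 the others became 5 and 4, and 8 and 4. The shares then became 15.5% and 16.2%, 25.3% and 24.8%, and 31.7% and 32.3%. Decorin (Dcn), a matrix proteoglycan that binds MET and antagonizes it, had the largest change in treated cells. It was at 0.615, 0.903 and 0.785 FPKM in pECDC, 0.390, 0.542 and 0.479 in iECDC and 17.4, 3.43 and 18.7 in treated libraries, with treated replicate 2 far below the other treated libraries but above all untreated ones. In treated cells the log2 fold change of Dcn was 4.83 (SE 0.636, edgeR adjusted p = 0.00205) relative to iECDCs and 4.12 (SE 0.644, edgeR adjusted p = 0.00382) relative to pECDCs. Cd44, whose longer splice forms present HGF to MET, was at 65.4 to 69.8 FPKM in pECDC and 67.7 to 78.1 in iECDC libraries and at 16.6, 35.0 and 17.1 in treated libraries. Its log2 fold change in treated cells was -1.66 relative to iECDCs (edgeR adjusted p = 0.00489) and -1.55 relative to pECDCs (0.0064), and gene counts do not separate its splice forms. Plxnb1, a semaphorin receptor that associates with MET, rose in treated cells by 1.02 relative to iECDCs (edgeR adjusted p = 0.00278) and by 0.89 relative to pECDCs (0.000975). Nrp1, a co-receptor, rose by 0.61 relative to pECDCs (edgeR adjusted p = 0.0078) and was at 0.45 relative to iECDCs (0.0413, but 0.0879 to 0.149 without any 1 iECDC replicate or without treated replicate 1 or 3). In iECDCs relative to pECDCs, Nrp2 was at 0.67 (edgeR adjusted p = 0.0311) and the syndecan gene Sdc2 at 0.34 (0.00948). Leaving out iECDC replicate 1 or 2 or any 1 of the pECDC replicates raised the adjusted p of Nrp2 to between 0.0662 and 0.129, and leaving out pECDC replicate 1 or 3 raised that of Sdc2 to 0.065 and 0.0523.

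Of 23 transducers of the MET signal, which include adaptors, kinases and small GTPases, 21 did not pass the test between iECDCs and pECDCs, 1 was higher and 1 lower (3 and 4 without iECDC replicate 3). In SB431542-treated cells 7 were higher and 1 lower than in iECDCs, and 9 were higher and 3 lower than in pECDCs. Over all tested genes 16.0% were higher and 14.0% lower than in iECDCs, and 17.9% and 17.0% than in pECDCs. Between iECDCs and pECDCs 7.21% were higher and 9.21% lower, and 15.5% and 16.2% without iECDC replicate 3. Without treated replicate 2 the counts were 9 and 3, where 25.3% and 24.8% of all tested genes were called, and 13 and 7, where 31.7% and 32.3% were called. The one that fell in iECDCs was Pik3r1, the regulatory subunit of PI3K, by 0.64 on the log2 scale (edgeR adjusted p = 0.00233), and it rose by 0.94 in treated cells relative to iECDCs (0.0057). It was at 7.02 to 7.76 FPKM in pECDC, 4.24 to 5.4 in iECDC and 7.27 to 10.5 in treated libraries, with iECDCs below both other groups. Gab1, the docking protein that binds MET directly, was at 4.39 ± 0.207 FPKM in pECDCs, 4.11 ± 0.524 in iECDCs and 6.88 ± 1.32 in treated cells (SD, n = 3 each). Its log2 fold change was 0.75 (edgeR adjusted p = 0.0147) relative to iECDCs and 0.66 (0.0149) relative to pECDCs. The first was at 0.0546 to 0.0699 without iECDC replicate 1 or without treated replicate 1 or 3, and the second at 0.0502 to 0.0676 without any 1 pECDC replicate or without treated replicate 1 or 3. Rap1a, a small GTPase of cell adhesion, fell by 0.59 in treated cells relative to pECDCs (edgeR adjusted p = 0.00158). Hras was at 0.42 in iECDCs relative to pECDCs (edgeR adjusted p = 0.0385), and at 0.123 to 0.131 in adjusted p without any 1 pECDC replicate.

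A list of 11 genes acts on the attenuation of MET, such as ubiquitin ligases, phosphatases and sheddases. It includes Timp3, which opposes shedding and is among the genes counted as lower in each comparison. Of the 11, none was higher and 3 were lower in iECDCs than in pECDCs, and 1 and 4 without iECDC replicate 3. In SB431542-treated cells 1 was higher and 2 lower than in iECDCs, and 1 higher and 4 lower than in pECDCs, and without treated replicate 2 these were 3 and 4, and 4 and 6. Of all tested genes 7.21%, 16.0% and 17.9% were higher in the 3 comparisons, and 9.21%, 14.0% and 17.0% lower. With these libraries left out the shares were 15.5% and 16.2%, 25.3% and 24.8%, and 31.7% and 32.3%. Timp3, an inhibitor of the metalloproteases that shed MET, fell in every comparison. It was at 126, 120 and 115 FPKM in pECDC, 73.7, 77.2 and 80.6 in iECDC and 33.2, 37.1 and 31.5 in treated libraries, 3 levels without overlap. Its log2 fold change was -0.65 (edgeR adjusted p = 0.000332) in iECDCs relative to pECDCs, -1.17 (0.000836) in treated cells relative to iECDCs and -1.82 (7.76e-05) relative to pECDCs, and these calls held in all 13 alternatives. Cbl, the ubiquitin ligase that targets activated MET, was at -0.06 (edgeR adjusted p = 0.745), -0.34 (0.0876) and -0.39 (0.0203) in the 3 comparisons, and the last was at an adjusted p of 0.0501 to 0.0875 without any 1 pECDC replicate or without treated replicate 1 or 3. Its relative Cblb fell by 0.52 (edgeR adjusted p = 0.00475) and the phosphatase gene Ptpn2 by 0.65 (0.00366) in treated cells relative to pECDCs. The sheddase genes Adam10 and Adam17 were at -0.22 (edgeR adjusted p = 0.0299) and -0.26 (0.0409) in iECDCs. Neither call held without any 1 pECDC replicate, with an adjusted p of 0.106 to 0.163 for Adam10 and 0.128 to 0.173 for Adam17, or without iECDC replicate 2 (0.0504 and 0.0563), and that of Adam10 did not hold without iECDC replicate 1 (0.0743). Lrig1 and Ptpn1 were at -0.47 and 0.45 in treated cells relative to iECDCs (edgeR adjusted p = 0.0443 and 0.0323). Without treated replicate 1 or 3 or iECDC replicate 1 or 2 their adjusted p was 0.0672 to 0.172, and that of Lrig1 was 0.0912 without iECDC replicate 3.

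Among 15 genes that ERK signalling raises downstream of MET and of many other receptors, 4 were higher and 1 lower in iECDCs than in pECDCs, and 9 and 2 without iECDC replicate 3. All tested genes gave 7.21% higher and 9.21% lower, and 15.5% and 16.2% without that library. In SB431542-treated cells none was higher and 6 were lower than in iECDCs, and 1 was higher and 6 lower than in pECDCs. Of all tested genes 16.0% and 17.9% were higher in these comparisons, and 14.0% and 17.0% lower. Without treated replicate 2 the counts were 2 and 12 in both. The shares over all tested genes were then 25.3% and 24.8%, and 31.7% and 32.3%. The median log2 fold change of the list was 0.14, -0.67 and -0.51 in the 3 comparisons. Dusp6, a phosphatase of ERK, was at 16.0, 16.4 and 16.0 FPKM in pECDC, 8.92, 9.09 and 7.40 in iECDC and 3.48, 6.10 and 4.81 in treated libraries, 3 levels without overlap. It fell by 0.94 in iECDCs relative to pECDCs (edgeR adjusted p = 0.000185) and by 1.74 in treated cells relative to pECDCs (0.000975). Between treated cells and iECDCs its log2 fold change was -0.81 (edgeR adjusted p = 0.0208), with an adjusted p of 0.0579 to 0.0794 without iECDC replicate 1 or 2 or treated replicate 1 or 3. Plaur, the urokinase receptor, went the other way in iECDCs, at 49.9 to 51.6 FPKM in pECDC, 63.3 to 82.3 in iECDC and 16.7, 27.8 and 17.8 in treated libraries. It was higher by 0.56 in iECDCs than in pECDCs (edgeR adjusted p = 0.00538) and its log2 fold change in treated cells was -1.84 relative to iECDCs (0.00123) and -1.27 relative to pECDCs (0.0029). Fosl1, an AP-1 subunit, rose by 0.82 in iECDCs (edgeR adjusted p = 7.62e-05). Dusp5, another ERK phosphatase, was at 20.8, 22.7 and 22.8 FPKM in pECDC, 37.8, 34.2 and 33.2 in iECDC and 8.65, 18 and 7.99 in treated libraries. It rose by 0.65 in iECDCs (edgeR adjusted p = 0.000591) and fell by 1.59 in treated cells relative to iECDCs (0.00641), and relative to pECDCs it was at -0.93 (0.0447, and 0.104 to 0.133 without any 1 pECDC replicate or without treated replicate 1 or 3).

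Of 16 genes known to act on Hgf, 12 could be tested. Il1a, Il1b and Tnf, cytokines that raise HGF in fibroblasts, and Ptger2 had too few counts. In iECDCs relative to pECDCs none was higher and 6 were lower, in SB431542-treated cells relative to iECDCs 5 were higher and 3 lower, and relative to pECDCs 3 were higher and 4 lower. In the 3 comparisons 7.21%, 16.0% and 17.9% of all tested genes were higher, and 9.21%, 14.0% and 17.0% lower. Without iECDC replicate 3 the first of these was 1 and 7, and without treated replicate 2 the others were 7 and 4, and 5 and 5. The shares over all tested genes were then 15.5% and 16.2%, 25.3% and 24.8%, and 31.7% and 32.3%. Fgf2, a growth factor that raises HGF, was at 19.2, 18.8 and 18.4 FPKM in pECDC, 8.66, 9.09 and 7 in iECDC and 0.336, 1.44 and 0.326 in treated libraries. It was lowest in treated cells, with a log2 fold change of -1.20 (SE 0.0945, edgeR adjusted p = 7.45e-05) in iECDCs relative to pECDCs, -3.52 (0.00287) in treated cells relative to iECDCs and -4.70 (0.00114) relative to pECDCs. Ptgs2, cyclooxygenase 2, whose product prostaglandin E2 raises HGF, was at 96.1 to 100 FPKM in pECDC, 190, 187 and 71.9 in iECDC and 2.71, 17.2 and 3.37 in treated libraries. In treated cells it was at -4.26 relative to iECDCs (edgeR adjusted p = 0.00641) and -3.65 relative to pECDCs (0.00777). Il6 was at -1.04 (edgeR adjusted p = 0.0283) and -1.60 (0.00106) in the same comparisons, and the first was at 0.0922 to 0.105 without iECDC replicate 1 or 2 or treated replicate 1.

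TGF-β, which is known to lower HGF production in fibroblasts, signals through TGFBR1, the target of SB431542. Tgfbr1 was at 9.34, 8.47 and 8.84 FPKM in pECDC, 5.79, 6.41 and 4.86 in iECDC and 9.24, 7.97 and 10.2 in SB431542-treated libraries, so that iECDCs were below both other groups, which overlapped. It fell by 0.66 in iECDCs relative to pECDCs (edgeR adjusted p = 0.00287) and rose by 0.69 in treated cells relative to iECDCs (0.0102). Of the ligand genes, Tgfb1 was at -0.26 (edgeR adjusted p = 0.0239), 0.17 (0.409) and -0.08 (0.689) in the 3 comparisons, at 12 to 14.2 FPKM in group mean, and the first was at an adjusted p of 0.0558 to 0.123 without any 1 pECDC replicate or without iECDC replicate 2. Tgfb3 was at -0.48 (edgeR adjusted p = 0.00333), 0.77 (0.00929) and 0.29 (0.157). Nr2f1, a nuclear receptor, fell by 0.85 in iECDCs relative to pECDCs (edgeR adjusted p = 0.00473). Cebpb, a transcription factor that binds the Hgf promoter, rose in treated cells by 0.80 relative to iECDCs (edgeR adjusted p = 0.00375) and by 0.72 relative to pECDCs (0.0032).

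A list of 10 genes that TGF-β signalling raises, kept apart from the pathway, served to check the inhibitor. In SB431542-treated cells 7 were lower and 1 higher than in iECDCs, with a median log2 fold change of -2.35, and 8 and 1 without treated replicate 2. Of all tested genes 14.0% were lower and 16.0% higher, and 24.8% and 25.3% without that library. The gene that was higher was Tgfbi, at 2.81, 5.08 and 4.34 FPKM in pECDC, 0.644, 0.661 and 0.518 in iECDC and 10, 2.06 and 8.98 in treated libraries. Upk3b, a mesothelial marker, was at 0.109 to 0.142 FPKM in pECDC, 0.0561 to 0.166 in iECDC and 1.16 to 1.36 in treated libraries, with a log2 fold change of 3.45 in treated cells relative to iECDCs (edgeR adjusted p = 0.000912) and 3.29 relative to pECDCs (0.00016). Wt1, another, was at 0.0207 to 0.0921, 0 to 0.0196 and 0.107 to 0.396 FPKM, with 0 to 2 counts in iECDC libraries. It was higher in treated cells than in iECDCs (edgeR adjusted p = 0.00615), and relative to pECDCs it was at 2.49 (0.0257, but 0.0767 to 0.0948 without pECDC replicate 2 or 3 or treated replicate 1 or 3). Upk3b and Wt1 were the 2 called of the 9 epithelial and mesothelial markers, of which 3 could be tested in treated cells. Krt19, the other tested marker, was at -0.09 relative to iECDCs (edgeR adjusted p = 0.754) and 0.57 relative to pECDCs (0.056). Cdh1, Epcam, Krt8, Krt18, Cldn4 and Msln had too few counts. Over all tested genes 16.0% were higher relative to iECDCs and 17.9% relative to pECDCs.

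**Figure D4:**
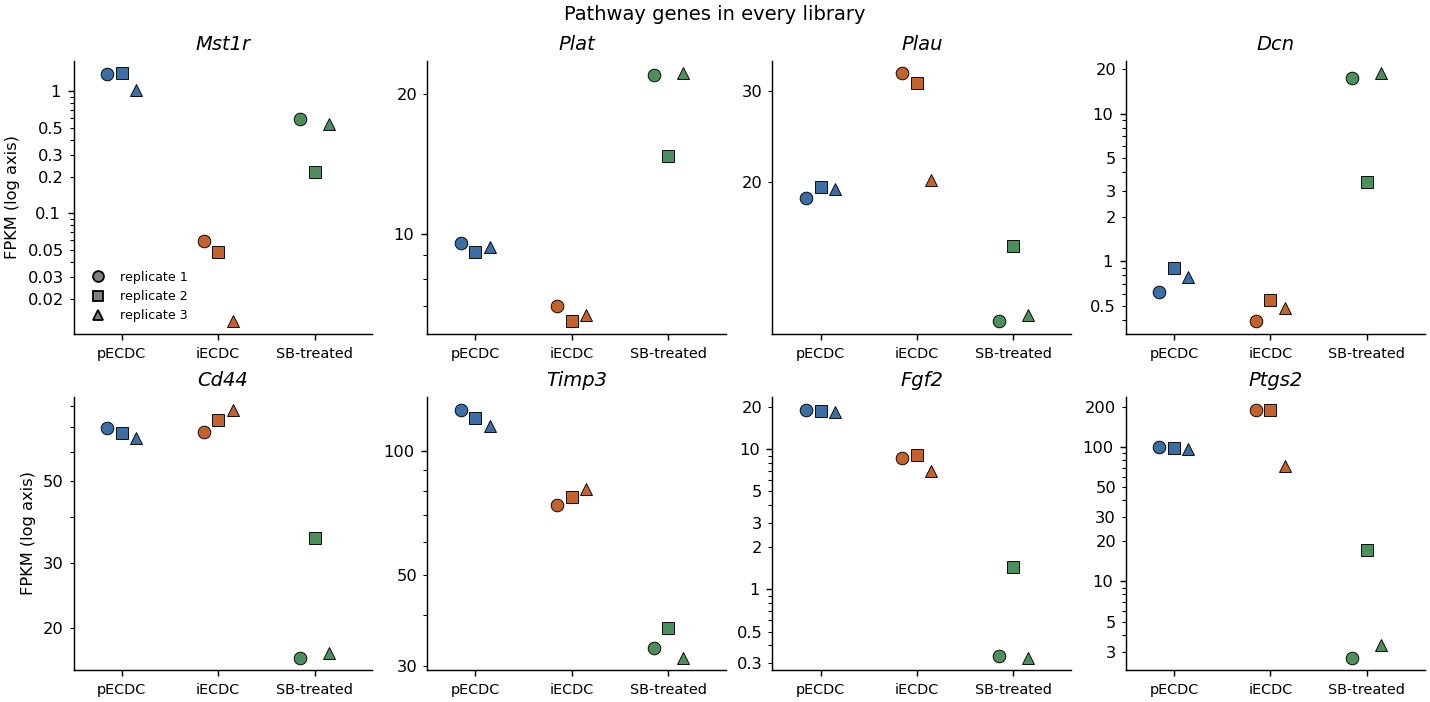
FPKM on a log axis, with a scale of its own in each panel, of 8 genes of the pathway lists in the 9 libraries, 1 symbol per replicate. Mst1r is lowest in iECDC libraries as Hgf is, Dcn and Plat are highest in treated libraries, Cd44, Timp3, Fgf2 and Ptgs2 are lowest there, and treated replicate 2 (square) lies apart from the other treated libraries for most of them.

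Of 6 transcription factor genes known to act on Met, 2 were higher and none lower in iECDCs than in pECDCs, 2 higher and 1 lower in SB431542-treated cells than in iECDCs, and 3 higher and 1 lower in treated cells than in pECDCs. Over all tested genes 7.21%, 16.0% and 17.9% were higher in the 3 comparisons, and 9.21%, 14.0% and 17.0% lower. Without iECDC replicate 3 the first of these was 3 and 1, and without treated replicate 2 the others were 4 and 1, and 5 and 1. All tested genes then gave 15.5% and 16.2%, 25.3% and 24.8%, and 31.7% and 32.3%. Pax3 was higher by 0.83 in iECDCs (edgeR adjusted p = 0.00496) and by 0.87 in treated cells (0.00783) than in pECDCs, and at 0.03 (0.927) between the other groups. Its level was 1.42 ± 0.0751 FPKM in pECDCs, 2.55 ± 0.459 in iECDCs and 2.58 ± 0.514 in treated cells (SD, n = 3 each). Ets1, a factor of the same list, was higher in iECDCs by 0.45 (edgeR adjusted p = 0.00109) and fell by 0.78 in treated cells relative to iECDCs (0.00149). Mitf, the melanocyte and osteoclast regulator, rose in treated cells by 1.41 relative to iECDCs (edgeR adjusted p = 0.00772) and by 1.33 relative to pECDCs (0.00032), to a mean of 2.12 FPKM. Ets2 was at 0.84 relative to pECDCs (edgeR adjusted p = 0.00766) and at 0.62 relative to iECDCs (0.0265, but 0.0718 to 0.0961 without any 1 iECDC replicate or without treated replicate 1 or 3).

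Among the 5 protein-coding genes whose pattern was most like that of Hgf, by Pearson's r of log2(FPKM + 1) over the 9 libraries and among 778 genes with a range of group means of at least 1 on that scale, were Spon2 (r = 0.983), Lcn2 (0.972), Foxa2 (0.957) and Samd5 (0.953). These values describe 9 libraries in 3 groups, so that any gene low in iECDCs alone has a high r. Spon2, a secreted matrix protein, was at 91.7 to 99.1 FPKM in pECDC, 5.59 to 9.14 in iECDC and 56.9 to 84.0 in SB431542-treated libraries. Foxa2, a forkhead transcription factor of endoderm, was at 10.2 to 10.8, then 1.29 to 1.85, then 8.21 to 12.6 FPKM, and its treated libraries overlapped the pECDC libraries, unlike those of Hgf. By Spearman's rho only 1 of the 5 genes was again among the 5 highest. The genes most like Met, among 779 genes, were Eef1a2 (r = 0.975), Elfn1 (0.921), Aif1l (0.910), Siglecg (0.890) and Npnt (0.878). Eef1a2, a translation elongation factor, was at 0.925 to 1.17 FPKM in pECDC, 3.42 to 3.87 in iECDC and 4.06 to 5.13 in treated libraries. Npnt, nephronectin, an integrin ligand, was at 18.8 to 20.9, then 47.9 to 75.2, and at 33.8, 79.2 and 31.7 FPKM in treated libraries, of which replicate 2 was the highest, as it was for Met.

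**Figure D5:**
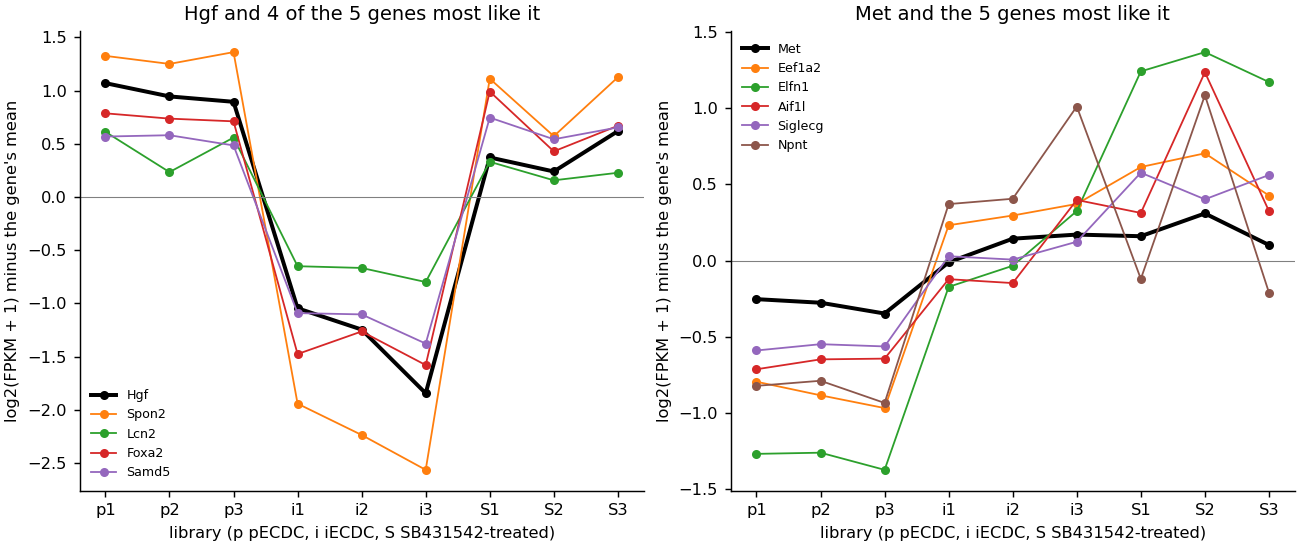
Log2(FPKM + 1) minus the gene's own mean over the 9 libraries (vertical axis) by library (horizontal axis, p for pECDC, i for iECDC, S for SB431542-treated), for Hgf (black) and 4 of the 5 genes most like it on the left and for Met and its 5 on the right. The Hgf set is low in the 3 iECDC libraries alone, and the Met set is low in the 3 pECDC libraries. The genes shown beside Met were required to range more widely than it does.

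Along chromosome 5, the tested genes nearest to Hgf included Gm43489, which lies within Hgf and overlaps one of its retained-intron transcripts. Gm43489 was at -3.46 in iECDCs relative to pECDCs and 2.74 in SB431542-treated cells relative to iECDCs, and reads of the pair cannot be assigned with certainty. Cacna2d1, a calcium channel subunit upstream of Hgf, was at -0.19 (edgeR adjusted p = 0.0668) and 0.76 (0.00893), and Sema3e, a semaphorin gene, was at -0.08 (0.458) and -0.67 (0.0442). Among genes tested within 5 Mb of Hgf, the median log2 fold change was -0.15 (21 genes), -0.18 (21) and -0.28 (22) in the 3 comparisons, against 0.0 over chromosome 5 in each. Around Met on chromosome 6 the medians were -0.03 (22 genes), -0.10 (22) and -0.04 (23), against -0.03, 0.02 and 0.0 over the chromosome. Cav1, caveolin 1, which lies next to Met with Cav2, was at 0.17 (edgeR adjusted p = 0.151), -0.35 (0.0543) and -0.17 (0.144). On its other side Capza2, an actin capping protein, was at 0.03 (edgeR adjusted p = 0.848), -0.35 (0.0448) and -0.31 (0.0138), where Met was at 0.43, 0.11 and 0.55.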

How the data were processed

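The authors deposited 1 table with read counts per gene, without normalization, and FPKM values (each the count scaled by gene length and library depth) for 9 libraries. The submitters' processing notes name TopHat2 2.0.9, Bowtie2 2.0.6 and mm9. Start and end equalled those of GENCODE M21 on GRCm38 for 53499 of 54532 genes, and GRCm38 was used. The counting program and the use of strand are not given in the sources used here. The authors' own means, fold changes and p-values were not used. Groups follow the labels.

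The test of the counts was that of edgeR 4.0.16 (R 4.3.3, TMM, filterByExpr with a minimum count of 10 and a total of 15, quasi-likelihood test, Benjamini-Hochberg adjustment over all genes tested), with the 2 compared groups in each fit. A gene was called at an adjusted p under 0.05. Standard errors were taken from the fold change and the F value. Alternatives were DESeq2 1.42.0, RLE size factors, no filter, all 9 libraries in 1 fit, a replicate block, 1 library left out at a time, limma 3.58.1 on log2(FPKM + 1) or log2(FPKM + 0.1), and a log2 fold change of at least 1. The tests were tried on simulated data first. Levels are FPKM with a count behind each. Total counts per library were 16568306 to 23951392.

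Hgf, Met, the gene lists and the tests were chosen with earlier results of these data known. From each list, up to 3 called genes with the largest change and a mean of at least 1 FPKM in the higher group were named per comparison, with 14 genes named for their role. Tgfb3, Tgfbr1 and Cebpb in some comparisons, Tgfbi, Upk3b, Wt1, Krt19, Pdgfra, Pdgfrb, Eng, Vim and Col1a1 were named after their values were seen. Of the genes most like Hgf or Met the 5 highest were named, and of chromosome neighbours the 3 nearest tested genes on each side were considered. No pairing of libraries by replicate number was seen. Deviations of libraries with the same number correlated at -0.20 to 0.03. A weak pairing would not be seen this way with 3 libraries a group, of which some stood apart. Promoters came from RefSeq, and gene identifiers gave back 27 symbols turned into dates. A few genes that these rules name are left out here.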

Additional observations from a re-analysis of the deposited data

How the results depend on the processing

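The 6 log2 fold changes of Hgf and Met moved by less than the spread between replicates in all 78 alternatives run, and none changed sign. The widest move was with limma on log2(FPKM + 1), which gave -2.35 for Hgf in iECDCs relative to pECDCs (5.1-fold lower, against 8.2-fold) and 1.79 in treated cells relative to iECDCs (3.46-fold, against 5.37-fold), since the added 1 FPKM shrinks folds of low genes. With log2(FPKM + 0.1) they were -3.07 and 2.45. Leaving out 1 library gave -3.39 to -2.71 for Hgf in iECDCs relative to pECDCs, 2.08 to 2.76 in treated cells relative to iECDCs and -0.75 to -0.52 relative to pECDCs, and 0.39 to 0.49, 0.04 to 0.16 and 0.49 to 0.60 for Met. The count of called pathway genes stayed within 1.5 times in 26 of 42 alternatives. It was 25, 37 and 47 in the 3 comparisons. It became 8 in the first with all 9 libraries in 1 fit, 2, 14 and 12 with a log2 fold change of at least 1, and 15 to 47, 21 to 61 and 30 to 76 when 1 library was left out, with the highest values without iECDC replicate 3, SB431542-treated replicate 2 and SB431542-treated replicate 2. The count over all genes became 671 in the first with all 9 libraries, and 1036 to 4467, 1707 to 7001 and 2453 to 9188 when 1 library was left out. The cause was not tested. With the replicate number as a replicate block the counts were 21, 32 and 42, although no pairing by number was seen. Of 18, 20 and 21 calls of list genes named by the rule in the 3 comparisons, 8, 13 and 17 held in all 13 alternatives. By Spearman's rho 1 of the 5 genes most like Hgf was again named. With 3 libraries a group, genes of few counts, such as Mst1 and most proteases of pro-HGF, could not be tested.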
